A study of Mus musculus with 9 samples.

Results

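Genes grouped as junction genes of the blood-aqueous barrier were followed in the mouse iris after corneal alkali injury. They are the 10 genes Tjp1, Cgn, Ocln, Cldn1, Cldn2, Cldn3, Cldn10, Cldn12, Cldn19 and Gja1, which were taken by gene symbol from the count files. The name is that of the list, and which cells of the iris expressed these genes was not measured. All 10 were among the 18349 genes listed, and all 10 were among the 15010 genes tested, although Cldn3 had very few reads. RNA was measured in 9 libraries of dissected iris that fall into 3 groups of 3, and a library was made from 3 pooled irises. The Sham VEGFR3fl/fl group, whose genotype the sample labels give as WT, consisted of littermates with floxed VEGFR3 alleles and no Cre, and its corneas were treated with 0.5 µL of PBS for 60 seconds. The Injured VEGFR3fl/fl group had the same genotype, and its corneas received 1 M sodium hydroxide at 6 weeks of age. The Injured VEGFR3iLECko group was injured in the same way and carried Prox1-CreERT2 beside the floxed alleles, so that tamoxifen deletes VEGFR3 in cells in which the Prox1 promoter is active, among them lymphatic endothelial cells. The treatment notes of all 9 libraries list tamoxifen at 80 mg/kg on days 13 to 17 after injury, and irises were taken at 10 weeks. The mice were kept on a C57BL/6J background. Nothing in the labels ties libraries of different groups to the same mice.

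The blood-aqueous barrier keeps plasma proteins out of the aqueous humor. It is formed by tight junctions of the nonpigmented ciliary epithelium and of the endothelium of iris vessels. In a tight junction, claudins and occludin span the membrane and meet partners on the neighbouring cell, and scaffold proteins of the plaque tie them to actin. Some claudins seal the space between cells, while others, such as claudin-2, form pores for ions and water. Gap junctions, built of connexins, pass ions and small molecules from cell to cell instead of closing the space between them.

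The promoters of the 3 genes on which the results turn most are shown here: Cldn2, the member that was higher in the libraries labelled Injured VEGFR3iLECko than in Injured VEGFR3fl/fl, and Cldn19 and Gja1, which had the largest falls after injury. Each line holds the 250 bases before the first RefSeq start of the gene in GRCm38.p6, on the plus strand, at chrX:139800558-139800807 for Cldn2, chr4:119255191-119255440 for Cldn19 and chr10:56377050-56377299 for Gja1. Capitals mark matches to any of 6 motifs, searched on both strands. They were the E-box with the letters CACGTG, the M-box with the letters TCATGTG, the OTX core with the letters TAATCC, the AP-1 element with the letters TGANTCA, the GC box with the letters GGGCGG and the TATA box with the letters TATAAA. None of these overlap in the lines shown.
Cldn2: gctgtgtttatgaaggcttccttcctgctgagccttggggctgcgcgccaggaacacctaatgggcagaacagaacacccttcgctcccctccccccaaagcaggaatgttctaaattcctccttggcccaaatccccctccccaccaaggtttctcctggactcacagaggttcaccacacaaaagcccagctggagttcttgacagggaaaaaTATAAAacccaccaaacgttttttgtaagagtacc
Cldn19: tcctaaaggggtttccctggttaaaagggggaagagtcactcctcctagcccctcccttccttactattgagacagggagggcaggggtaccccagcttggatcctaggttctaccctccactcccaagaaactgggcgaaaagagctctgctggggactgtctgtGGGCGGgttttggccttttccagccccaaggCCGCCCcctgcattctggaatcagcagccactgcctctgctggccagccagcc
Gja1: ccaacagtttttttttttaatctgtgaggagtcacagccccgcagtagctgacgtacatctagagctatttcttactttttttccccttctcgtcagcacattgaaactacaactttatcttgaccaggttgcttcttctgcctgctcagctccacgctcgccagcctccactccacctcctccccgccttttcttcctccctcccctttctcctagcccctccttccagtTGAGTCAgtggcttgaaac
The capitals are a TATA box in Cldn2, 2 GC boxes in Cldn19 and 1 AP-1 match in Gja1. Over windows of 300 bases that also hold the first 50 transcribed bases, the 10 genes had 15 RefSeq starts. GC boxes were found in 11 of these 15 windows, which belong to 8 of the 10 genes, and in 35.7% of all 32851 promoter windows. A TATA box was found for Cldn2 alone among the 10 genes, against 13.6% of all windows. The AP-1 letters occurred for Gja1 alone, against 7.81% of all windows. The E-box occurred for Cgn alone (7.15% of all windows), the M-box for 1 of the 2 starts of Cldn10 (3.77%), and the OTX core for 0 of the 10 genes (7.06%). A match describes letters only, and whether a factor binds there was not measured.

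Facts of the whole series bear on what follows. Total estimated counts per library lay between 16617187 and 18306359. Flt4, the gene for VEGFR3, had 15.6, 13.4 and 14.9 CPM (read counts scaled to library size with TMM factors) in the Sham libraries, 16.8, 20.7 and 23.0 CPM in Injured VEGFR3fl/fl and 27.9, 21.0 and 27.4 CPM in the libraries labelled Injured VEGFR3iLECko. Flt4 was thus not lower in the libraries labelled as deleted (log2 difference against Injured VEGFR3fl/fl 0.33, SE 0.15, edgeR adjusted p = 0.200). A level in bulk iris does not measure deletion in lymphatic endothelial cells alone. The paper that reported these data found lymphangiogenesis blocked in stained irises of VEGFR3iLECko mice. For the libraries themselves the label rests on the submitters' word, and every direction given for that group holds for libraries so labelled. The driver gene Prox1 had 3.05, 0.960 and 1.52 CPM in Sham and 4.49, 2.99 and 0.574 CPM in Injured VEGFR3fl/fl. In the libraries labelled Injured VEGFR3iLECko, Prox1 had 0.935, 1.13 and 1.21 CPM (log2 difference against Injured VEGFR3fl/fl -1.29, SE 0.66, edgeR adjusted p = 0.256). The 4 Y-linked genes examined summed to 51.1, 82.3 and 167 CPM in Sham and to 151 and 136 CPM in Injured VEGFR3fl/fl replicates 1 and 2. Their sum was 0.804 CPM in Injured VEGFR3fl/fl replicate 3 and between 0.736 and 1.11 CPM in the 3 libraries labelled Injured VEGFR3iLECko. The iris markers of pigment epithelium and melanocytes were present in all libraries, with a sum over 9 genes of at least 3607 CPM. The ciliary epithelium, one of the sites of the barrier, was to be removed by dissection, and its 2 markers Atp6v1c2 and Cacna1e summed to 1.44 to 3.64 CPM in the 9 libraries.

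Gja1, which encodes connexin 43, was by far the most abundant of the 10 transcripts. Levels of different genes were compared as approximate TPM, which divides counts by the length of the longest GENCODE transcript and scales each library to the same total. In Sham irises Gja1 had 893 ± 79.4 TPM (SD, n = 3). Cldn19 followed with 96.4 ± 3.98 TPM (SD, n = 3), and Cldn2 with 82.99 ± 17.8 TPM (SD, n = 3). Below them came Tjp1, Cgn, Cldn1 and Cldn12, with means from 57.9 down to 28.9 TPM, then Cldn10 with 11.4, Ocln with 7.97 and Cldn3 with 1.72 TPM. The ranges of neighbours in this order overlapped from Cldn19 down to Cldn12 and between Cldn10 and Ocln, so the order inside these runs is not settled. With the median transcript length in place of the longest, Tjp1 moved to rank 2 and Cldn19 to rank 4 in Sham. In Injured VEGFR3fl/fl, Gja1 stayed first with 247 ± 78.3 TPM (SD, n = 3) and Cldn2 stood next with 43.4 ± 9.60 TPM (SD, n = 3), while Cldn19 had dropped below Tjp1 to 20.7 ± 7.83 TPM (SD, n = 3). From Cldn2 down to Cldn1, every pair of neighbours overlapped in that group. In the libraries labelled Injured VEGFR3iLECko, Cldn2 had 104 ± 17.7 TPM (SD, n = 3), lay above every library of Tjp1, the next gene, and was below Gja1 alone (402 ± 37.0 TPM, SD, n = 3). With the median transcript length, Tjp1 ranked above Cldn2 in all 3 groups.

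**Figure D1:**
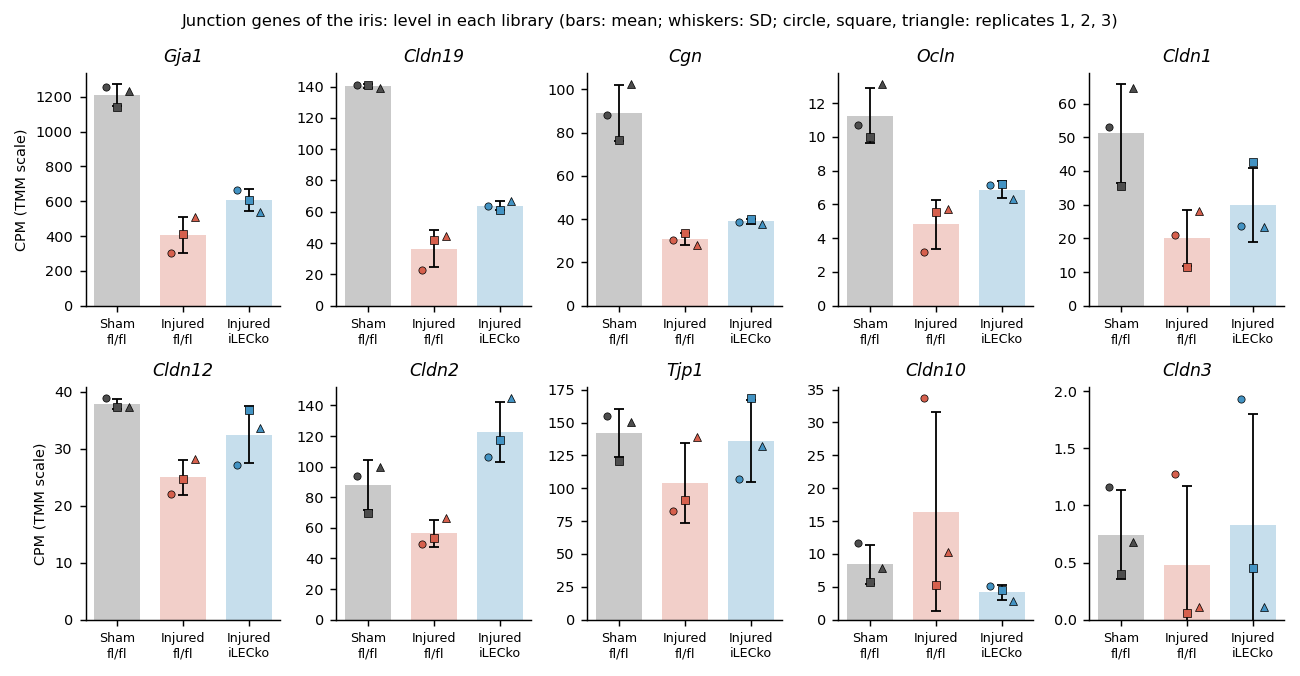
Level of each of the 10 junction genes in each library, in CPM on the TMM scale (y axis, from 0, a scale of its own for each gene), by group (x axis). Bars are means, whiskers SD (n = 3, cut at 0 for Cldn3), and circles, squares and triangles are replicates 1, 2 and 3. For Gja1, Cldn19, Cgn and Ocln both injured groups lie below every Sham library, whereas Cldn2 is lowest in Injured VEGFR3fl/fl and highest in Injured VEGFR3iLECko.

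Injury was first examined by comparing Injured VEGFR3fl/fl with Sham VEGFR3fl/fl. Of the 10 junction genes, 7 fell and 0 rose, where a change means an adjusted p under 0.05 in edgeR's quasi-likelihood test and more than 1.5-fold. The 7 were Cldn19, Gja1, Cgn, Cldn1, Ocln, Cldn2 and Cldn12, with falls from 3.85-fold to 1.51-fold. Among all genes tested, 17.5% were called lower and 22.1% higher in this comparison, so falls were more frequent among the 10 than in the background, and no rise was called. The 10 were chosen with earlier results of these data known, so their share beside the background is a description and not a test. At an unadjusted p under 0.05, 0 of the 10 were higher, beside 33.5% of all genes, and DESeq2 called 0 higher. The median log2 difference of the 10 was -0.93, beside 0.01 over all genes. For the same 7 genes the groups did not overlap, which was the case for 66.3% of all genes. In bulk tissue, fewer cells of a type and less RNA per cell cannot be told apart. Without Injured VEGFR3fl/fl replicate 1, 5 of the 10 were called lower, and Cldn2 and Cldn12 were not among them.

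The plaque scaffolds gave unlike values. Tjp1 encodes ZO-1, the scaffold that binds claudins, occludin and actin, and lies at chr7:65296165-65527781 on the minus strand (mm10). It had 155, 121 and 150 CPM in Sham and 82.5, 91.0 and 139 CPM in Injured VEGFR3fl/fl. The groups overlapped through Injured VEGFR3fl/fl replicate 3, and the difference was -0.45 on the log2 scale (SE 0.22, 95% interval -0.95 to 0.05, edgeR adjusted p = 0.108). Tjp1 passed the threshold without that replicate (-0.71, adjusted p = 0.0125 in edgeR). Cgn encodes cingulin, a plaque protein that links ZO proteins to the cytoskeleton, at chr3:94760069-94786492 on the minus strand. Its level was 88.3, 76.8 and 102 CPM in Sham and 30.5, 33.6 and 28.2 CPM after injury. Every injured library lay below every Sham library, by 2.90-fold on average (log2 difference -1.53, SE 0.11, edgeR adjusted p = 4.05e-06), and Cgn was called under all 18 alternatives.

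Occludin, a membrane protein of the tight junction, is encoded by Ocln at chr13:100496507-100552718 on the minus strand. Ocln had 10.7, 9.998 and 13.1 CPM in Sham and 3.16, 5.56 and 5.74 CPM in Injured VEGFR3fl/fl. The groups did not overlap, and Ocln fell 2.33-fold (log2 difference -1.22, SE 0.23, edgeR adjusted p = 0.00133).

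Of the 6 claudins, 4 fell after injury and 0 rose. Cldn19, at chr4:119255414-119262438 on the plus strand, encodes claudin-19, known from the kidney tubule, where it pairs with claudin-16, and from Schwann cells and the retinal pigment epithelium. It had 141, 141 and 139 CPM in Sham, a coefficient of variation of 0.764%, and 23.0, 42.0 and 44.3 CPM in Injured VEGFR3fl/fl. This was the largest fall of the 10 genes, 3.85-fold (log2 difference -1.94, SE 0.20, edgeR adjusted p = 3.94e-05). Cldn1, at chr16:26356642-26371841 on the minus strand, encodes claudin-1, a sealing claudin of epithelia. Cldn1 had 53.1, 35.6 and 64.6 CPM in Sham and 21.1, 11.5 and 28.02 CPM after injury. It varied about its mean by 28.5% in Sham and 41.2% after injury, but the groups did not overlap, and it fell 2.53-fold (log2 difference -1.34, SE 0.36, edgeR adjusted p = 0.00993).

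Cldn2 encodes claudin-2, the pore-forming claudin of leaky epithelia, and lies at chrX:139800828-139811386 on the plus strand. Its level was 94.2, 69.5 and 100.01 CPM in Sham and 49.3, 53.2 and 66.6 CPM in Injured VEGFR3fl/fl. The injured libraries were all lower, yet the highest of them was close to the lowest Sham library, and the fall of 1.56-fold was only just past the threshold (log2 difference -0.64, SE 0.17, edgeR adjusted p = 0.00998). Without Sham replicate 3 the difference was -0.54, and without Injured VEGFR3fl/fl replicate 1 it was -0.55, both under 1.5-fold. Cldn12, at chr5:5489537-5514958 on the minus strand, encodes an atypical claudin that lacks the usual binding motif for ZO proteins. Cldn12 had 38.9, 37.3 and 37.3 CPM in Sham and 22.1, 24.8 and 28.2 CPM after injury. The groups were apart, and the fall of 1.51-fold was the smallest of those called (log2 difference -0.60, SE 0.12, edgeR adjusted p = 0.00259). It dropped under 1.5-fold in 3 of 18 alternatives, with an adjusted p of at most 0.0111 over the alternatives.

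Cldn10 and Cldn3 did not pass the test. Cldn10, at chr14:118787908-118875489 on the plus strand, encodes claudin-10, whose forms make ion-selective pores and start at 2 promoters that counts per gene do not separate. Cldn10 had 11.6, 5.76 and 7.88 CPM in Sham and 33.7, 5.33 and 10.2 CPM in Injured VEGFR3fl/fl. The high value belonged to replicate 1, and its log2 difference of 0.96 (SE 0.59, edgeR adjusted p = 0.187) was -0.12 without that library and 1.38 (adjusted p = 0.0358 in edgeR) without replicate 2. The same replicate 1 held 117 CPM of Aldh3a1, an enzyme abundant in corneal cells, against 1.93 and 10.2 CPM in replicates 2 and 3, and 4818 CPM of Dcn, the stromal proteoglycan decorin, against 1027 and 1899 CPM. Ciliary body markers summed to 3.64 CPM in replicate 1 against 1.46 and 1.44 CPM. Macrophage markers summed to 20512 CPM there against 11990 and 15071 CPM, and pigment markers to 3607 against 5712 and 6082 CPM. The 6 keratins in the list of surface epithelial markers were at 0 to 0.728 CPM in replicate 1, where Epcam had 1.09 and Trp63 1.27 CPM, and the part of other tissue in the Cldn10 value was not tested. Cldn3, at chr5:134986214-134987472 on the plus strand, encodes a sealing claudin. Its counts were 21, 7 and 12 in Sham, 21, 1 and 2 in Injured VEGFR3fl/fl and 33, 8 and 2 in the libraries labelled Injured VEGFR3iLECko. Replicate 1 was highest in each group, and with so few reads no difference between groups was detectable.

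Gja1, at chr10:56377330-56402513 on the plus strand, encodes connexin 43, which forms gap junctions between many cells and couples the layers of the ciliary epithelium. Its level was 1258, 1142 and 1234 CPM in Sham and 301, 414 and 509 CPM in Injured VEGFR3fl/fl. No injured library reached 1142 CPM, the lowest Sham value, and Gja1 fell 2.97-fold (log2 difference -1.57, SE 0.18, edgeR adjusted p = 6.05e-05). Cgn, Ocln, Cldn1, Cldn19 and Gja1 remained called lower under all 18 alternatives.

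**Figure D2:**
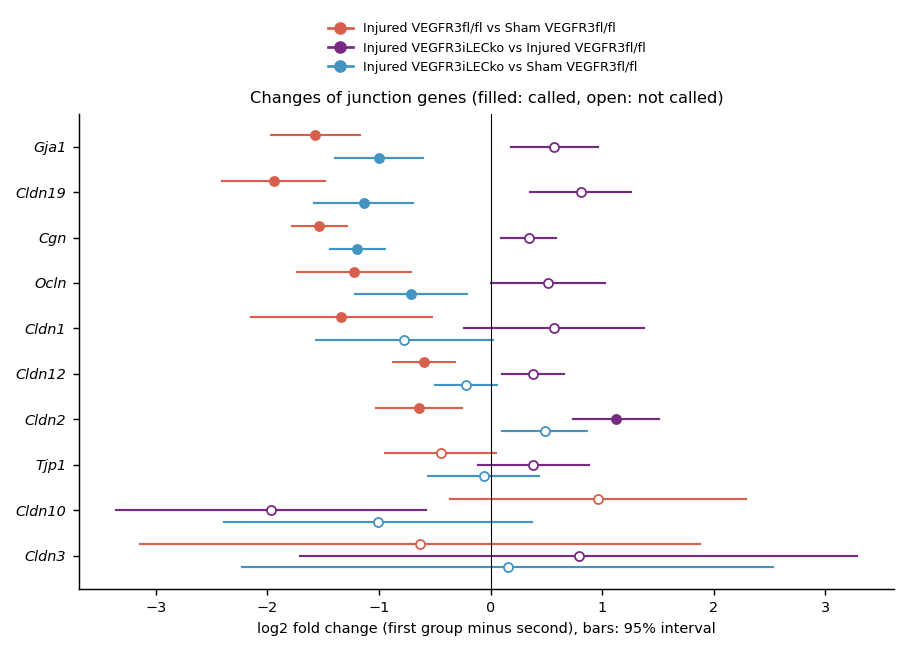
log2 fold changes (x axis) of the 10 junction genes (rows) in the 3 comparisons of groups, with bars for the 95% interval and filled points for genes past both thresholds. After injury 7 genes lie to the left with filled points; between the injured groups Cldn2 alone is filled, at 1.12, and the intervals of Cldn3 and Cldn10 are the widest.

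The effect of VEGFR3 deletion was addressed by comparing the libraries labelled Injured VEGFR3iLECko with Injured VEGFR3fl/fl. Transcripts of Y-linked genes come from males, and their sums above set all 3 libraries labelled Injured VEGFR3iLECko and 1 of 3 Injured VEGFR3fl/fl libraries near 1 CPM or below. Apart from that 1 library, the sex of the pooled mice and genotype cannot be told apart in this comparison, and this holds for each value in it. Of the 10 junction genes, Cldn2 was higher and 0 were lower by edgeR's test, beside 0.573% of all genes called higher and 0.466% called lower. At an unadjusted p under 0.05, 5 of the 10 were higher and 1, Cldn10, was lower, beside 12.0% of all genes higher and 12.5% lower at that p. DESeq2 called 2 higher, Cldn2 and Cldn19, and Cldn10 lower. The 9 genes other than Cldn10 had log2 differences above 0, and the median of the 10 was 0.54, beside -0.01 over all genes. The groups did not overlap for 6 of the 10, of which Cgn, Ocln, Cldn2, Cldn19 and Gja1 were higher and Cldn10 lower, whereas 26.7% of all genes did not overlap. This comparison shares the Injured VEGFR3fl/fl libraries with the comparison above.

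Cldn2 had 107, 117 and 145 CPM in the libraries labelled Injured VEGFR3iLECko, after 49.3, 53.2 and 66.6 CPM in Injured VEGFR3fl/fl. All 3 were above every other library of the series. Cldn2 was 2.18-fold higher (log2 difference 1.12, SE 0.17, 95% interval 0.73 to 1.51, edgeR adjusted p = 0.0278). Over the alternatives the difference ranged from 0.91 to 1.26, the adjusted p rose to as much as 0.290, and the call was lost in 7 of 18. It was lost without any one of the 3 libraries labelled Injured VEGFR3iLECko (log2 difference 0.99 to 1.22, adjusted p = 0.0564 to 0.111 in edgeR), without Sham replicate 1 (adjusted p = 0.0579) or 3 (adjusted p = 0.0596), and when only the 6 injured libraries were fitted (1.13, adjusted p = 0.0968 in edgeR). With the Y-linked level as a covariate, the difference was 0.91 (adjusted p = 0.290 in edgeR). Cldn2 itself lies on the X chromosome. Injured VEGFR3fl/fl replicate 3, the library of its group with hardly any Y-linked reads, had 66.6 CPM of Cldn2, the highest of that group and below the 107 to 145 CPM of the other group.

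The other members gave smaller differences that did not pass the test. Cldn19 had 63.6, 60.9 and 66.7 CPM in the libraries labelled Injured VEGFR3iLECko, above all 3 values of Injured VEGFR3fl/fl and below all 3 Sham libraries. Its difference was 0.81 (SE 0.20, 95% interval 0.36 to 1.26, edgeR adjusted p = 0.0699). Gja1 had 667, 608 and 541 CPM, and again each of these was above the highest Injured VEGFR3fl/fl library at 509 CPM. The log2 difference was 0.57 (SE 0.17, 95% interval 0.18 to 0.96, edgeR adjusted p = 0.102), and Gja1 was called without Injured VEGFR3fl/fl replicate 3.

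Cgn (38.8, 40.1 and 37.9 CPM) and Ocln (7.13, 7.19 and 6.33 CPM) were also apart from Injured VEGFR3fl/fl, by 0.34 (SE 0.11, edgeR adjusted p = 0.117) and 0.51 (SE 0.23, edgeR adjusted p = 0.205) on the log2 scale. For both genes the replicates of this group were close to each other, with a coefficient of variation of 2.80% for Cgn and 6.96% for Ocln. Cldn12 (27.1, 36.8 and 33.7 CPM), Tjp1 (107, 168 and 132 CPM) and Cldn1 (23.7, 42.7 and 23.3 CPM) overlapped with Injured VEGFR3fl/fl, with log2 differences of 0.38, 0.38 and 0.57. Replicate 2 was the highest of its group for all 3 of these genes. Their 95% intervals were 0.10 to 0.66 for Cldn12, -0.11 to 0.88 for Tjp1 and -0.24 to 1.38 for Cldn1. Cldn10 had 5.08, 4.59 and 2.88 CPM, all below the lowest Injured VEGFR3fl/fl library at 5.33 CPM, and its difference of -1.97 (SE 0.61, 95% interval -3.36 to -0.58, edgeR adjusted p = 0.109) rested largely on replicate 1 of the latter, without which it was -0.89.

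Set against Sham, 4 of the 10 genes were lower in the libraries labelled Injured VEGFR3iLECko and 0 were higher, beside 15.0% of all genes called lower and 19.7% called higher. Y-linked genes summed to 51.1 to 167 CPM in Sham and to 0.736 to 1.11 CPM in the libraries labelled Injured VEGFR3iLECko. Sex of the pooled mice, injury and genotype thus cannot be told apart here, and this holds for each value in this comparison. At an unadjusted p under 0.05, 1 of the 10 was higher, beside 30.5% of all genes. DESeq2 called 5 lower, with Cldn1 added, and 0 higher. The groups were apart for 7 of the 10, against 66.5% of all genes. Cgn was 2.29-fold lower (log2 difference -1.19, SE 0.11, edgeR adjusted p = 2.36e-05), Cldn19 2.201-fold lower (-1.14, SE 0.20, adjusted p = 0.00108), Gja1 2.001-fold lower (-1.0005, SE 0.17, adjusted p = 0.00107) and Ocln 1.64-fold lower (-0.71, SE 0.22, adjusted p = 0.0227). Cgn, Cldn19 and Gja1 were called under all 18 alternatives. The call for Ocln was lost without Sham replicate 3 (-0.59, adjusted p = 0.0893 in edgeR), without Injured VEGFR3iLECko replicate 2 (adjusted p = 0.0504) or 3 (adjusted p = 0.0748) and with the Y-linked covariate (adjusted p = 0.0731). Cldn1 (-0.77, SE 0.35, edgeR adjusted p = 0.0910), Cldn12 (-0.22, SE 0.12, adjusted p = 0.162) and Tjp1 (-0.06, SE 0.22, adjusted p = 0.824) did not pass the test, though Cldn1 was called in 4 of 18 alternatives, among them without Injured VEGFR3iLECko replicate 2 (-1.12, adjusted p = 0.0342) and without Injured VEGFR3fl/fl replicate 2 (-0.77, adjusted p = 0.0475). Neither did Cldn10 (-1.01, SE 0.61, adjusted p = 0.191) or Cldn3 (0.15, SE 1.053, adjusted p = 0.914). Without Injured VEGFR3fl/fl replicate 1, whose Cldn10 level stood apart, Cldn10 was called lower (-1.01, adjusted p = 0.0320 in edgeR). Cldn10 was also called lower when only the libraries compared were fitted, which leaves out all of Injured VEGFR3fl/fl. Cldn2 went the other way, at 1.40 times its Sham level (log2 difference 0.48, SE 0.17, edgeR adjusted p = 0.0370), which is under the 1.5-fold threshold and was past it without Sham replicate 3 (0.59). The libraries did not overlap, 107 to 145 CPM against 69.5 to 100.01 CPM in Sham, and with the Y-linked covariate the difference was 0.17 (adjusted p = 0.655 in edgeR). Both injured groups were compared with the same Sham libraries.

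The make-up of claudin transcripts differed between the groups. Summed over the 17 claudins in the files, claudin level per length was 527 ± 12.0 TPM (SD, n = 3) in Sham, 253 ± 13.5 TPM (SD, n = 3) in Injured VEGFR3fl/fl and 300 ± 16.6 TPM (SD, n = 3) in the libraries labelled Injured VEGFR3iLECko. TPM were not scaled by the TMM factors used for CPM, and the total behind TPM is weighted by transcript length. Through both differences in scaling, falls after injury read larger in TPM than in CPM. Cldn5, the claudin of blood vessel endothelium and no member here, had a share of 43.3% ± 6.12 (SD, n = 3) in Sham. From Sham to Injured VEGFR3fl/fl, its mean went from 228 to 107 TPM but from 114 to 65.8 CPM. All shares depend on the length used for each gene. Cldn2 made up 17.7, 12.0 and 17.5% of the sum in Sham, 14.4, 16.8 and 20.1% in Injured VEGFR3fl/fl and 31.2, 33.0 and 40.1% in the libraries labelled Injured VEGFR3iLECko. Its share was thus alike in Sham and Injured VEGFR3fl/fl, whose ranges overlapped, and higher in each library of the third group, with a mean of 34.7%. Cldn19 took 17.7 to 19.4% in Sham, 4.89 to 9.76% in Injured VEGFR3fl/fl and 12.5 to 13.6% in the libraries labelled Injured VEGFR3iLECko, with no overlap between the 3 groups. With the median transcript length, chosen as an alternative after the data were seen, the mean share of Cldn2 was 37.6% in Sham, 40.5% in Injured VEGFR3fl/fl and 62.6% in the libraries labelled Injured VEGFR3iLECko, and it exceeded the share of Cldn5 (26.2, 25.3 and 13.0%) in each group. Cldn2 was again higher in every library of the third group, at 59.3 to 67.6%, than in the others, at 31.2 to 45.4%. The share of Cldn19 then overlapped between the injured groups, at 4.88 to 9.55% and 9.24 to 10.5%. Cldn10 held 14.0% of the sum in Injured VEGFR3fl/fl replicate 1. Shares sum to the whole, so a rise of one claudin lowers the others by construction, and with 3 libraries against 3 an exact permutation test cannot give less than 0.1.

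**Figure D3:**
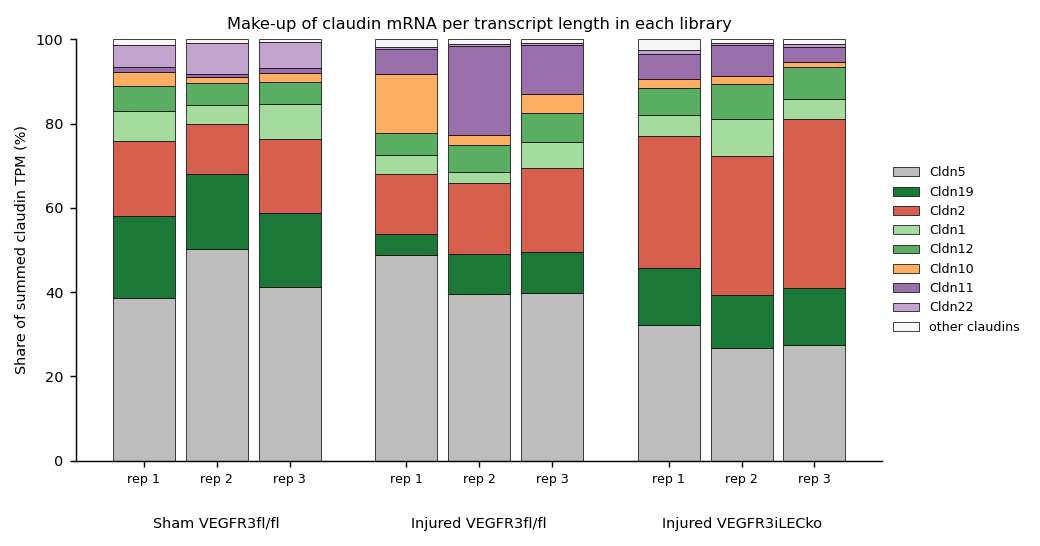
Share of each claudin in the summed approximate TPM (longest transcript length) of the 17 claudins (y axis, percent, from 0 to 100) in each of the 9 libraries (x axis, by group and replicate). The red block, Cldn2, is 12.0 to 20.1% in the Sham and Injured VEGFR3fl/fl libraries and 31.2 to 40.1% in the Injured VEGFR3iLECko libraries, and the dark green block, Cldn19, is smallest in Injured VEGFR3fl/fl.

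Other genes of tight, gap and adherens junctions were taken from a list of 71 genes, of which 63 were in the files and 49 were tested. After injury 11 of the 49 rose and 19 fell, beside the 22.1% and 17.5% of all genes given above, so that the rises were near the background and the falls above it. This list too was chosen with earlier results of these data known. The median log2 difference was -0.35. Among 15 other plaque genes, 9 fell and 1 rose. Among these 15 the largest falls were those of Pard6b, a polarity protein that works with PAR-3 and atypical protein kinase C (-1.93, SE 0.17, edgeR adjusted p = 1.54e-05), of Magi2 (-1.42, SE 0.10, adjusted p = 3.72e-06) and of Mpdz, a scaffold with many PDZ domains (-1.23, SE 0.09, adjusted p = 6.04e-06). Cgn was thus not alone among plaque genes, whereas the ZO-1 gene Tjp1 did not pass the test.

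Counts by role after injury stand beside 17.5% of all genes called lower and 22.1% called higher. Among 4 other claudins tested, 2 fell and 1 rose. Cldn22 had 9.14, 14.2 and 11.5 CPM in Sham and 0.468 to 0.607 CPM in Injured VEGFR3fl/fl (-4.38, SE 0.29, edgeR adjusted p = 2.67e-06). Cldn5 fell by 0.79 on the log2 scale (SE 0.15, edgeR adjusted p = 0.00145) while 7 of 9 blood endothelial markers rose and their sum went from 560 to 612 CPM in Sham up to 1726 to 1790 CPM after injury. Cldn11, the claudin of myelin and of Sertoli cells, rose from 2.54 to 4.62 CPM up to 12.4 to 41.2 CPM (2.78, SE 0.45, edgeR adjusted p = 5.68e-04). Of 9 other transmembrane genes, 3 rose and 1 fell. Esam, an adhesion molecule of endothelium and platelets, was 1.49 higher (SE 0.12, edgeR adjusted p = 9.03e-06), Marveld2, which encodes tricellulin, 1.08 higher (SE 0.29, adjusted p = 0.00995), and Jam2 1.36 lower on the log2 scale (log2 difference -1.36, SE 0.13, adjusted p = 2.90e-05).

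The connexins split, with 4 of 10 higher and 4 lower, beside 22.1% of all genes called higher and 17.5% called lower. Gjb2 had 136, 164 and 146 CPM in Sham and 4.01, 12.4 and 7.87 CPM in Injured VEGFR3fl/fl (-4.19, SE 0.39, edgeR adjusted p = 2.09e-05). Its fall was steeper than the 2.97-fold fall of Gja1, though the difference between the 2 genes was not tested. Gjb5 went from 0.113 to 0.226 CPM, no more than 4 counts per library, to 3.40 to 10.5 CPM (5.32, SE 0.52, edgeR adjusted p = 2.51e-05). Of 11 adherens junction genes, 2 rose and 3 fell, which is near the shares of all genes. Cdh5, the cadherin of endothelium, was 4.23-fold higher (2.08, SE 0.16, edgeR adjusted p = 7.31e-06), while Cdh1, the epithelial cadherin, was 3.55-fold lower (-1.83, SE 0.18, adjusted p = 2.34e-05) and Nectin1 3.13-fold lower (-1.64, SE 0.17, adjusted p = 3.79e-05).

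Of the 49 other junction genes, 1 was called higher and 0 lower by edgeR when the libraries labelled Injured VEGFR3iLECko were set against Injured VEGFR3fl/fl, and DESeq2 also called 1 higher and 0 lower. Over all 15010 genes tested, edgeR called 0.573% higher and 0.466% lower, and DESeq2 called 344 genes higher and 282 lower. At an unadjusted p under 0.05, 14 of the 49 were higher and 3 lower, set against the same 12.0% and 12.5% of all genes, and the median log2 difference was 0.19. The gene called was Nectin3, an adhesion molecule of adherens junctions. Nectin3 had 225, 210 and 232 CPM in Sham, 74.9, 101 and 101 CPM in Injured VEGFR3fl/fl and 140, 141 and 146 CPM in the libraries labelled Injured VEGFR3iLECko. It lay between the other groups without overlap, with a difference of 0.62 against Injured VEGFR3fl/fl (SE 0.11, edgeR adjusted p = 0.0399). The call was lost in 11 of 18 alternatives, with differences of 0.50 to 0.69 over all of them. The alternatives without the call included scaling by library size only (adjusted p = 0.0550 in edgeR), the fit of the injured libraries alone (0.117), the replicate block (0.0733), the Y-linked covariate (0.389), and leaving out any Sham library (0.0608 to 0.0771) or any library labelled Injured VEGFR3iLECko (0.0768 to 0.145). Without Injured VEGFR3fl/fl replicate 1 the difference of 0.50 was under 1.5-fold. All 15 other plaque genes had differences above 0, with a median of 0.31, but edgeR and DESeq2 called 0 of them, and 9 had an unadjusted p under 0.05 (12.0% of all genes were higher at that p). In the libraries labelled Injured VEGFR3iLECko, 16 of the 49 were called lower than Sham by edgeR and 12 higher. Of all genes tested, 15.0% were called lower and 19.7% higher in that comparison with Sham.

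**Figure D4:**
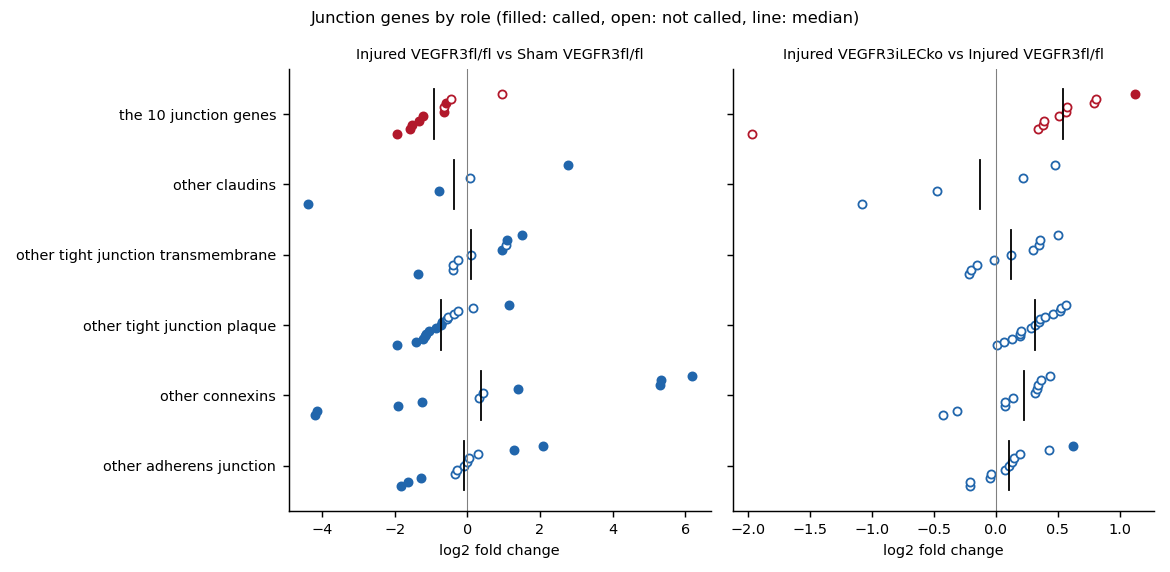
log2 fold changes (x axis) of the 10 junction genes (red) and of the other junction genes tested (blue), by role (rows), for Injured VEGFR3fl/fl against Sham (left) and Injured VEGFR3iLECko against Injured VEGFR3fl/fl (right). Filled points passed both thresholds and black lines are medians. On the right, Cldn2 and Nectin3 are the filled points, and the plaque genes all lie above 0.

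The members differed in how closely they moved with each other over the 9 libraries. On log2 CPM, Cldn19 and Gja1 had a Pearson r of 0.98, Ocln and Cldn19 0.97, and Ocln and Gja1 0.97. Cldn10 ran apart from most, with r from -0.66 with Cldn2 to 0.45 with Cldn3. The 9 libraries are 3 groups rather than 9 independent points, and likeness within groups was not computed. Likeness was searched for members with a mean of at least 1 CPM, which leaves out Cldn3, against all genes tested. The gene most like Cldn19 was Otx1, a homeobox transcription factor (r = 1.00 at 2 decimals), and the next were Epha5 and Cntnap1 (r of at least 0.99). Most like Gja1 were Slc25a23, Fam13c and Gm46620, and most like Cgn were Nap1l3, Cd99l2 and Sptbn1, all with r of at least 0.99. Tjp1 was most like Mpp5 (r = 0.98), which encodes the polarity scaffold PALS1, followed by Unkl and Trappc8 (both 0.97). For Cldn2, whose pattern was unlike the others, the leading genes were Arnt2 (0.98), Dhx15 (0.97) and Gfpt1 (0.96). Ocln was most like Nyap1, R3hdm2 and Disp1, Cldn1 most like Ptpn13, Efcab14 and Oxr1, and Cldn12 most like Ankrd6, Nbea and Gm38495, with r from 0.97 to 0.99. Cldn10 followed Ptgis (0.97), Myoc (0.96) and Gstm4 (0.95), of which Myoc encodes myocilin, abundant in the trabecular meshwork.

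Markers of several cell types moved with injury beside the junction genes. The sum over 9 markers of iris pigment epithelium and melanocytes was 28531 to 30505 CPM in Sham, 3607 to 6082 CPM in Injured VEGFR3fl/fl and 5400 to 7508 CPM in the libraries labelled Injured VEGFR3iLECko. All 9 of these markers fell after injury, and 0 of 9 were called between the injured groups by edgeR. All 9 nevertheless had log2 differences above 0 between the injured groups, with a median of 0.32. For 5 of the 9 the libraries labelled Injured VEGFR3iLECko were all higher, while 26.7% of all genes did not overlap. Smooth muscle markers summed to 7209 to 9403, 1457 to 3056 and 2159 to 3523 CPM in the same order, with 4 of 5 lower after injury. Schwann cell markers, given because Cldn19 is expressed in those cells, summed to 246 to 310, 111 to 117 and 103 to 136 CPM, with 4 of 7 tested lower and 1 higher after injury.

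Macrophage markers moved the other way, with sums of 436 to 455, 11990 to 20512 and 7789 to 9669 CPM. Of the marker lists, this alone had calls between the injured groups, with 3 of 8 genes lower in the libraries labelled Injured VEGFR3iLECko. Blood endothelial markers summed to 560 to 612, 1726 to 1790 and 1548 to 1750 CPM, and stromal fibroblast markers to 3309 to 3813, 10357 to 18558 and 9977 to 13755 CPM. Surface epithelial markers summed to 39.4 to 104 CPM in Sham, 15.0 to 126 CPM in Injured VEGFR3fl/fl, where Aldh3a1 of replicate 1 made up most, and 10.9 to 12.9 CPM in the third group, with means under 1 CPM for 3, 7 and 8 of its 10 genes. Of 8 surface epithelial markers tested, 6 fell after injury. Lens markers summed to 601 to 765, 295 to 359 and 262 to 355 CPM, but of 5 tested 2 fell after injury, Cryab and Bfsp2, and 2 rose, Cryaa and Crybb2. The sum follows Cryab, at a mean of 536 CPM in Sham and 217 CPM in Injured VEGFR3fl/fl, whereas Cryaa went from at most 0.113 CPM to 2.91, 35.5 and 31.1 CPM. Crybb2 was at 0 counts in all Sham libraries and at 2.31, 18.6 and 0 CPM after injury. Striated muscle markers summed to 55.6 to 67.9, 1.15 to 3.40 and 1.61 to 1.99 CPM. Retina markers varied within every group, from 15.0 CPM in Injured VEGFR3fl/fl replicate 3 to 843 CPM in Sham replicate 1. The part of these cell types in the changes of the junction genes was not tested.

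**Figure D5:**
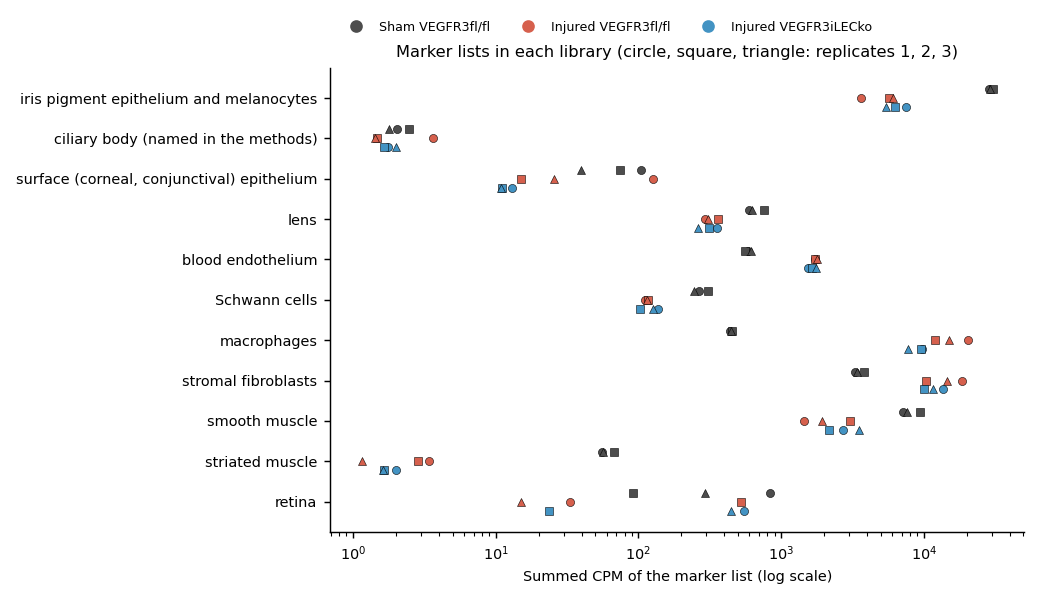
Summed CPM of each marker list (x axis, log scale) in each library, by list (rows), with colours for groups and circles, squares and triangles for replicates 1, 2 and 3. Pigment, smooth muscle and Schwann cell lists are higher in Sham than in both injured groups, macrophage and endothelial lists are lower in Sham, and ciliary body markers stay between 1.44 and 3.64 CPM.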

How the data were processed

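Iris mRNA was sequenced as single-end reads of 50 bases. Per the labels and the submitters' processing notes, the authors used HISAT2 2.0.4, Bowtie2 2.2.5, DESeq2 1.4.5 and the mm10 build, and deposited estimated counts per gene, not normalized. The counting program is not given in the sources used here. A combined table that repeats these values with group averages was not used. Groups came from the titles. The genotype tags of 2 libraries labelled Injured VEGFR3iLECko name another VEGFR number and were not followed.

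Counts were rounded and analysed in R 4.3.3 with edgeR 4.0.16. filterByExpr kept 15010 of 18349 genes, TMM factors were 0.900 to 1.09, and all 9 libraries entered 1 quasi-likelihood fit with group as the only term. Adjusted p-values are Benjamini-Hochberg values over all genes tested, in 3 comparisons that share libraries. A gene was called at an adjusted p under 0.05 and more than 1.5-fold, and standard errors came from the F statistic. The procedure was tested on simulated data. Approximate TPM used the longest GENCODE M21 transcript, available for 97.7% of genes. Promoters came from RefSeq (GRCm38.p6, the build behind mm10). Likeness used log2 CPM with a prior count of 2.

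All 10 genes are described. Of the other junction genes, those named were, per list, the 3 called with the largest change after injury and a mean of at least 1 CPM, and any called between the injured groups, though not every gene this rule names is reported here. Cldn5 and the single marker genes given by name were named after their values were seen. Members and lists were chosen with earlier results of these data known. Replicates differed beyond counting noise (chi-square per degree of freedom 4.65 to 67.7). Whether libraries of a group came from separate litters is not stated, and p-values measure the spread between these libraries. Alternatives covered scaling, filters, DESeq2 1.42.0, the libraries fitted, a replicate block, a Y-linked covariate, the fold threshold, transcript length and leaving out each library.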

Additional observations from a re-analysis of the deposited data

How the results depend on the processing

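Counts of calls changed mostly between the injured groups. The members called higher there, 1, were 0 with only the libraries compared or with a Y-linked covariate, 2 with DESeq2, and 0 to 2 without 1 library. Members called lower, 0, were 1 with DESeq2. Other junction genes called higher, 1 (Nectin3), were 0 by library size only, with only the libraries compared, with the replicate block or with the Y-linked covariate, 2 with no fold threshold, and 0 to 2 without 1 library. Over all genes, 86 higher became 0, 0, 11 and 344, and 70 lower became 0, 2, 13 and 282, with only the libraries compared, the Y-linked covariate, the replicate block and DESeq2. Library size only gave 41 lower, no fold threshold gave 112 lower, and leaving out 1 library gave 0 to 174 higher and 0 to 149 lower.

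After injury, members called lower ranged from 5 to 8 and members called higher from 0 to 1 without 1 library, the 1 being Cldn10 without Injured VEGFR3fl/fl replicate 2. With no fold threshold, 4269 genes were lower after injury and 3953 in the libraries labelled Injured VEGFR3iLECko against Sham, where members called higher, 0, were 1 with no fold threshold and 0 to 1 without 1 library, and other junction genes called higher, 12, were 7 with the Y-linked covariate.

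Directions turned for genes that had not passed the test. Cldn10 after injury ranged from -0.12 to 1.38 on the log2 scale without 1 library. Between the injured groups, Tjp1 was -0.021 with the Y-linked covariate and Cldn3 ranged from -0.73 to 3.16 without 1 library. Against Sham, Tjp1 ranged from -0.25 to 0.084 and Cldn3 from -1.36 to 0.67 without 1 library, and Cldn3 was -0.29 with the replicate block. The cause was not tested. Library size only moved the median of all genes after injury to -0.16, and added Tjp1 to the members called lower. The Y-linked covariate added Tjp1 there as well. Against Sham, Tjp1 in the libraries labelled Injured VEGFR3iLECko was as low as -0.67 over all alternatives, and it was never called.

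No pairing of the libraries by replicate number was seen, though 3 libraries a group cannot exclude one. Deviations of same-numbered libraries from their group means correlated between -0.39 and 0.13, and the replicate block left the members called as they were. The block did lower the calls over all genes between the injured groups, as given above. For Cldn3 and Cldn10, replicate 1 was the highest in each group. Depth limited Cldn3, at 1 to 33 counts per library.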
